A study of Mus musculus with 43 samples.

Results

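The polyamine genes were chosen by name as the enzymes and regulators that set the level of putrescine, spermidine and spermine: Odc1, Amd1, Srm and Sms for synthesis, Oaz1, Oaz2 and Azin1 for the control of ornithine decarboxylase, and Sat1 and Smox for breakdown. These 9 genes had 20 of the 45101 probe sets of the Affymetrix Mouse Genome 430 2.0 array, and 19 of the 20 were among the 32184 probe sets tested. The probe set of each gene with the highest mean log2 signal is called its lead probe set. The other probe sets are given where they differ.

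The cells were CTLL-2, a mouse cytotoxic T lymphocyte line that needs interleukin-2 (IL-2) to grow and that was derived, per the labels, from a C57BL/6 mouse. All cultures first spent 14 h without IL-2. IL-2 cultures then received human recombinant IL-2 at 100 U/mL and were collected at 10 times, namely 0.5, 1 and 2 h, every 2 h from 4 to 12 h, and 16 and 24 h, with 3 arrays at each time and 4 arrays at 4 h. No IL-2 cultures received none and were collected 4 h (4 arrays) or 8 h (3 arrays) later, and the starved 0 h group held 5 arrays collected at the end of the first 14 h. No culture that had never been starved of IL-2 is among the 43 arrays, and a single cell line was used. The study describes the replicates of a time point as biological replicates.

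Polyamines are small positively charged molecules that bind RNA and DNA and that dividing cells need in quantity. Ornithine decarboxylase, encoded by Odc1, makes putrescine from ornithine, and the product of Amd1 makes the decarboxylated S-adenosylmethionine from which aminopropyl groups are added to give spermidine (Srm, spermidine synthase) and then spermine (Sms, spermine synthase). Antizymes (Oaz1, Oaz2) bind ornithine decarboxylase and send it to the proteasome, the antizyme inhibitor Azin1 binds antizyme in its place, spermidine/spermine acetyltransferase (Sat1) tags polyamines for export or oxidation, and spermine oxidase (Smox) turns spermine back into spermidine.

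Upstream sequence is shown for the synthesis genes Odc1 and Amd1, for the breakdown gene Sat1 and for Sms, because the signals of the first 3 moved over the IL-2 times while that of Sms did not pass the test. The sequences are RefSeq's, build GRCm38.p6, 5′ to 3′ on the strand of the gene, at chr12:17544623-17544807 (+) for Odc1, chr10:40302189-40302438 (-) for Amd1, chrX:155216450-155216699 (-) for Sat1 and chrX:157492288-157492537 (-) for Sms. Capitals mark CACGTG, the E-box letters that MYC family proteins are known to bind.
Odc1: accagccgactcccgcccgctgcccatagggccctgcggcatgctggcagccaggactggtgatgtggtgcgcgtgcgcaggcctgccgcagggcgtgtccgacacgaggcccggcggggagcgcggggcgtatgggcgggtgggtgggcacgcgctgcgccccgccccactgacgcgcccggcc
Amd1: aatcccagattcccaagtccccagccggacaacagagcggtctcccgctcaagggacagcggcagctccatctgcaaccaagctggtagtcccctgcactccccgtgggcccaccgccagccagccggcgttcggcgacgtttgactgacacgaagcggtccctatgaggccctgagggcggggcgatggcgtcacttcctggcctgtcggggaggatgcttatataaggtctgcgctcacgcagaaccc
Sat1: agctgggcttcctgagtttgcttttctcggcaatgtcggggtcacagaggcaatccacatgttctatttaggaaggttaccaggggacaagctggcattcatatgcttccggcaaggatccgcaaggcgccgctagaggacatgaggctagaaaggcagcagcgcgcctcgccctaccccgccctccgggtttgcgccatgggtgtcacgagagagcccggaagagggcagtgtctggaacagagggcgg
Sms: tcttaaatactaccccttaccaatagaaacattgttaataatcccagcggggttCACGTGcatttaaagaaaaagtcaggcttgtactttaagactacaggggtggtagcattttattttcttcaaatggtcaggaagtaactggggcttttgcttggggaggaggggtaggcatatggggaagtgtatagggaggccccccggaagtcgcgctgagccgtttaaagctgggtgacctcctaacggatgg
Windows of 250 bases before an annotated transcript start were given for 7 of the 9 genes, with 2 windows for Sms. None was given for Srm or Azin1, so the sequence before them was not searched. CACGTG, which reads the same on both strands, was in 7.15% of 32851 such windows over all genes, and among the polyamine genes it was found once, starting 196 bases before the Sms start (position -196). TTCNNNGAA, the letters that STAT5, a factor activated by the IL-2 receptor, is known to bind, also reads the same on both strands; it was in 8.3% of all windows and in none of the polyamine genes' windows. The stretch printed for Odc1 had a GC content of 77.8%, against 64.4% for Amd1, 59.6% for Sat1 and 47.2% for the printed Sms window. The other Sms window, before a different annotated start, is not printed. It had a GC content of 75.2% and no CACGTG.

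All values are signals on a linear scale that the authors scaled to the same trimmed mean on every array (500.003 to 500.004). The median signal of an array lay between 46.1 and 118.6, and the highest 7 medians (96.3 to 118.6) belonged to the 7 arrays of 1 scan day. Medians over the 43 arrays were 18067 to 37321 for the T cell genes Cd3d, Cd3g, Gzmb, Prf1 and Ptprc, 13776 for Il2ra, 8352 for Il2rb, 4736 for Cd3e and 527 for Cd8a, whereas B cell (Cd79a, Cd79b), fibroblast (Col1a1, Col3a1) and erythroid (Klf1) markers had medians of 36.1 to 50.1. Of the other T cell markers listed, Cd2 had 1 probe set, which was above the array median on too few arrays to be tested. Lck had no probe set under that symbol. Higher medians among markers of other cell types were 118.5 for Col1a2 (fibroblasts) and 182 for Csf1r and 959.9 for Cd68 (macrophages, with Lyz2 at 39.9). All 7 no IL-2 arrays were scanned in a different year from the other 36 arrays, so scan year and the no IL-2 condition cannot be told apart. The 3′/5′ ratio of the actin control probe sets was 1.526, 1.406 and 1.407 on the no IL-2 8 h arrays, above the 1.364 or less of the other 40 arrays; its part in the no IL-2 8 h results was not tested. In fits with limma, differences are log2(signal + 16) with limma's standard error (SE), and a gene is called changed at a Benjamini-Hochberg adjusted p under 0.05 over all tested probe sets. In RNA from a culture, fewer cells with a transcript and less transcript per cell cannot be told apart.

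After their values were seen, 3 arrays were singled out because they stood apart from their own replicates in the polyamine genes. In no IL-2 4 h replicate 2 the Odc1 signal was 19689.9, against 4851.2 to 6952.1 in the other 3 replicates, and the Sat1 signal was 3727.2, against 9755.6 to 10895.2. In IL-2 24 h replicate 1 the Odc1 signal was 24522 and the Sat1 signal 1125.4, against 11280.8 and 8989.3 for Odc1 and 11903.8 and 11658.7 for Sat1 in the other two. IL-2 16 h replicate 1 had the highest Amd1 signal of all 43 arrays (8652.9) and the lowest Sat1 signal (497.1), and its 3′/5′ ratio for the GAPDH control probe sets was 1.407, above the 0.967 or less of the arrays at 10, 12 and 24 h. On each of these 3 arrays the biosynthetic genes and Azin1 were high and Sat1 was low at once, as the plot of single arrays shows. On the lead probe sets of Odc1, Amd1, Srm, Azin1 and Sat1, replicate 2 of the no IL-2 4 h group, by its label, lay within the range of the IL-2 4 h arrays or beyond it on the side away from its own group, whereas on the other Odc1 probe sets and the second Azin1 probe set it lay between the groups. On the lead probe sets of Oaz1, Oaz2 and Sms the same array lay nearer its own group. For Oaz1 it was 0.47 above the starved mean on the log2 scale. The other arrays of its group were at 0.37 to 0.66, and the IL-2 4 h arrays at -0.13 to 0.01. The label of this array is in doubt, and whether the label is right was not tested. Differences whose call changed without 1 of these arrays are given with and without it. Group means, their order and the correlations use all arrays.

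**Figure D1:**
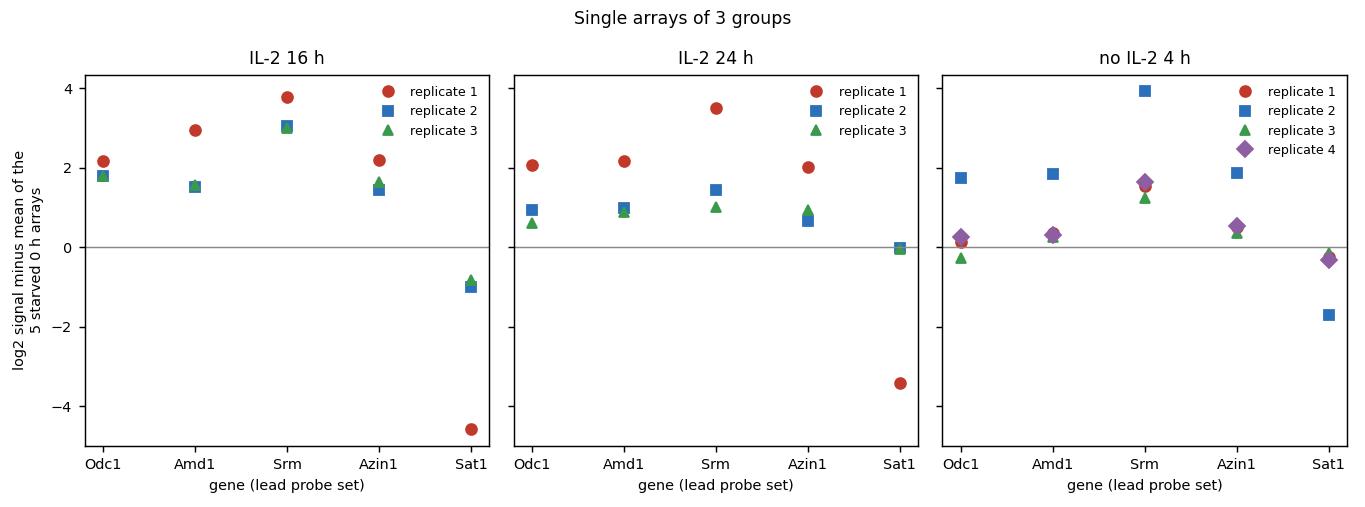
Log2 signal of 5 genes (lead probe sets) on every array of 3 groups, as the difference from the mean of the 5 starved 0 h arrays; each symbol is 1 array. Replicate 1 of IL-2 16 h and 24 h and replicate 2 of no IL-2 4 h lie above the other replicates for Odc1, Amd1, Srm and Azin1 and below them for Sat1.

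The first comparison asks how the polyamine genes behave over the hours after IL-2 is returned to starved cells. Odc1, Srm and Azin1 rose and stayed high for many hours, Sat1 fell at 8 to 16 h, and Sms, Oaz1, Oaz2 and Smox did not pass the test at any of the 10 times. Over the starved 0 h group and the 10 IL-2 times together, limma's F test called 4 of the 8 genes that could be tested (Odc1, adjusted p = 1.27e-08; Srm, 2.14e-11; Azin1, 2.54e-10; Sat1, 0.0015), where it called 26.8% of all tested probe sets. Counted over genes and times, 27 of 80 gene-by-time differences from starved 0 h were called, against 11.8% over all probe sets. Amd1 is left out of these counts: its 2 probe sets carry a gene name here only through the authors' deposited table of changed probe sets, so they were in effect chosen for changing, and they are described with no test.

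Odc1, the gene of the first and rate-limiting enzyme, was called from 2 h of IL-2 on, as Azin1 was. Its signal was 5990.6, 7873.5 and 10752.6 at 0.5 h and 10099, 12600.1 and 13466.7 at 1 h, where the starved 0 h arrays had 4668 to 7255. All 3 arrays at 1 h thus lay above every starved array, although the difference of 1.03 ± 0.27 (SE) on the log2 scale did not pass the test (adjusted p = 0.0744). Some alternative fits called it, such as limma with scan day as a random block (1.01, adjusted p = 0.0432). How many of all tested probe sets separate from starved 0 h in this way at 1, 2 or 4 h was not counted. At 2 h the difference was 1.49 ± 0.27, and the signals at 8 h, which had the highest group mean, were 28453.1, 26900 and 26276.9. The 8 h arrays lay far above all starved arrays, by 2.22 ± 0.27 on the log2 scale or 4.65-fold (adjusted p = 3.27e-07). At 24 h the difference was 1.21 and still called, but without replicate 1 of that time it was 0.79 and was not (adjusted p = 0.0738). A second Odc1 probe set changed more (3.57 ± 0.35 at 8 h) than the lead one, and the third changed less (1.66 ± 0.39). The 3 probe sets differed from starved 0 h in the same direction at every called time, and in size by the amounts given.

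Srm, whose enzyme makes spermidine, was first called at 4 h, although some alternative fits called it at 2 h. Its signal stayed at 372.1 to 689.8 at 0.5 and 1 h, within or near the 378.5 to 601.3 of the starved arrays. At 2 h the 3 arrays had 1344.2, 943 and 1188.2, above all earlier ones, with a difference of 1.28 ± 0.39 that did not pass the test (adjusted p = 0.0676). It was called by limma with scan day as a random block (1.29, adjusted p = 0.0326) and on the compared arrays alone (1.28, adjusted p = 0.00744). The later first call of Srm than of Odc1 and Azin1 thus depends on the fit. By 4 h the signals were 4739.1, 3596.3, 3401.6 and 3547.7, a rise of 2.99 ± 0.36 on the log2 scale (adjusted p = 2.96e-07). At 8 h they were 5020.1, 5149.9 and 4359.2, or 10.1-fold the starved level on this scale, the largest change of any lead probe set in the family at that time. Between 2 and 8 h of IL-2, Srm rose by 2.06 (adjusted p = 0.00325), and the 3 Odc1 probe sets differed among themselves over the same interval: the lead one by 0.73 (adjusted p = 0.193), the second by 2.13 (7.98e-04) and the third by 0.09 (0.959). Azin1 was called between the same times by a small margin (0.88, adjusted p = 0.0499), and leaving out any 1 of the 6 arrays of those times left 1 of the 8 genes called in place of 2; over all probe sets this comparison called 5.0%. At 24 h Srm was 1.99 above starved 0 h, and 1.22 without replicate 1 of that time (adjusted p = 0.0368).

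Amd1, whose enzyme provides the aminopropyl donor, had signals of 798.5 to 1118 at 0.5 and 1 h and of 858.2 to 1479.4 on the starved arrays. At 2 h it had 2133.6, 1562.7 and 2382.4, and at 8 h 3632.1, 3336.1 and 3520, all above the starved arrays. The log2 difference from starved 0 h was 0.83 at 2 h, 1.63 at 8 h and 2.01 at 10 and 16 h, the last with replicate 1 at 8652.9 and the other replicates at 3215.1 and 3319.3. The second Amd1 probe set, which the authors' deposited table assigns to Amd1 and Amd2 together, differed by 2.03 at 8 h. Sms, which makes spermine, showed no such course: its signals were 2381.3, 1345.9 and 2141.9 at 8 h, against 1293.5 to 2134.1 on the starved arrays. The Sms difference at 8 h was 0.12, with a 95% interval of -0.25 to 0.48, so a change of the size seen in Odc1 or Srm lies outside this interval. Its largest difference was 0.44 at 24 h (adjusted p = 0.122), and it was called without replicate 2 of that time, at 0.71. All 3 Sms probe sets also match a pseudogene in the platform annotation, and neither of the others was called at 4 or 8 h.

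**Figure D2:**
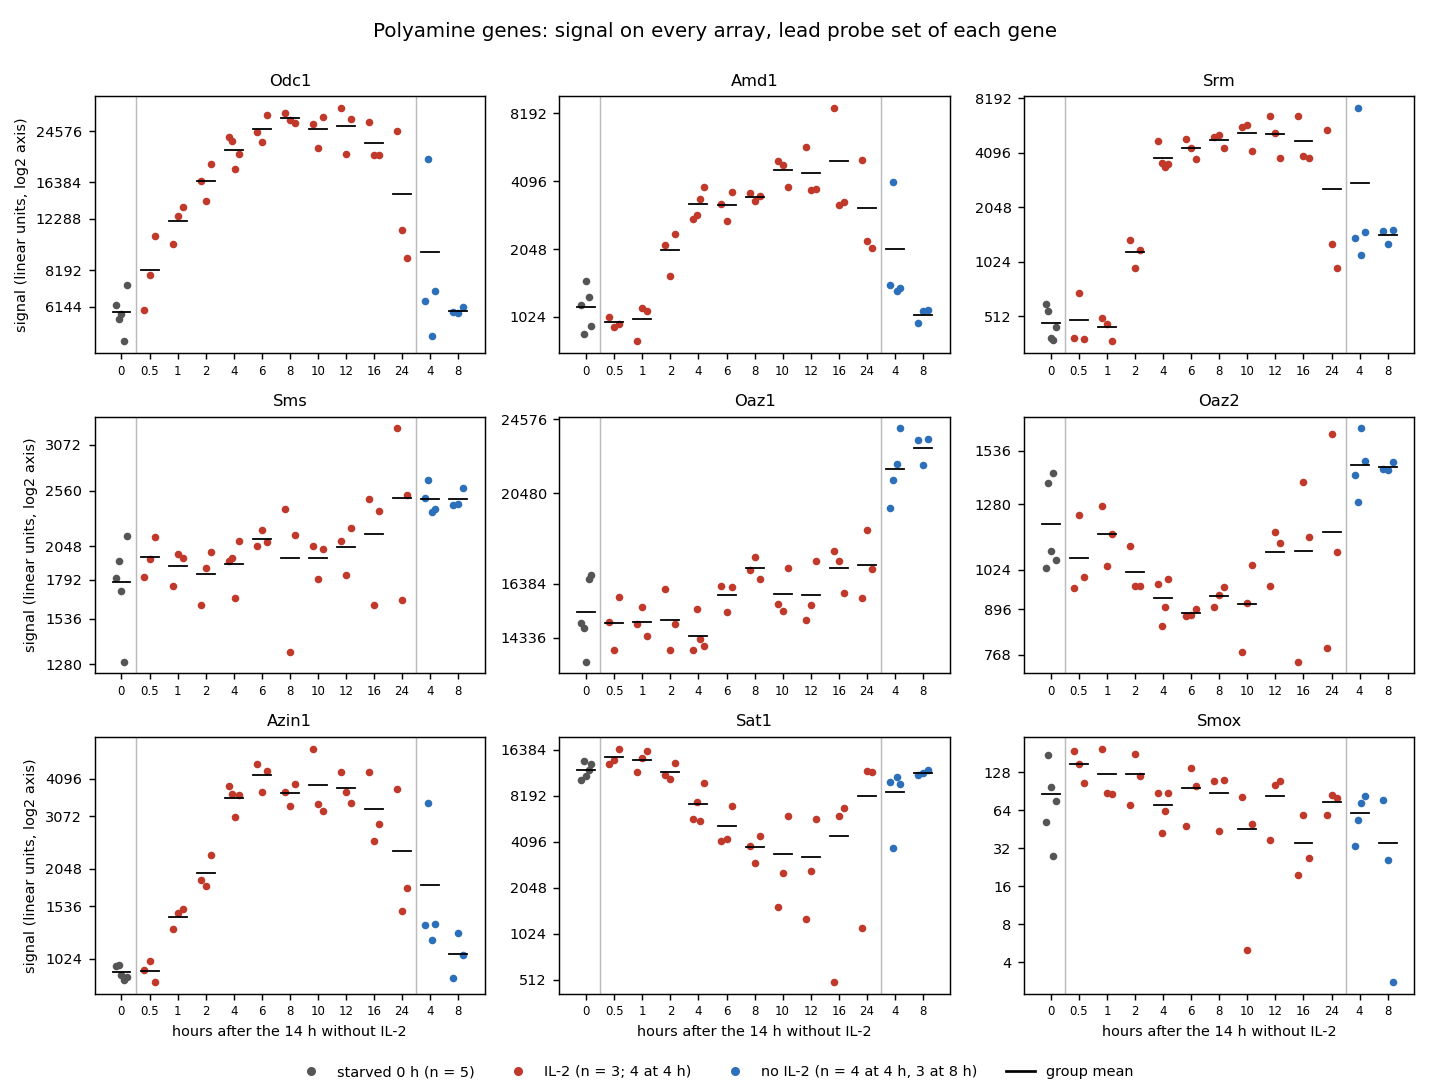
Signal of the lead probe set of each of the 9 genes on all 43 arrays, on a log2 axis that differs between panels; points are arrays, black bars group means, and the x axis gives hours after the 14 h without IL-2. Odc1 climbs within the first 2 h, Srm between 1 and 4 h, Sat1 declines to 12 h, and the no IL-2 arrays (right of the second grey line) are the highest for Oaz1.

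Among the regulators of ornithine decarboxylase, Azin1 alone was called over the IL-2 times. Azin1 had signals of 1283.4, 1455.8 and 1498.4 at 1 h, above the 872.1 to 979 of the starved arrays, and of 1873.7, 1792.6 and 2275.1 at 2 h, when it was first called (1.08 ± 0.24). That first call was lost without replicate 3 of 2 h, at 0.98. At 8 h the signals were 3708.2, 3317.4 and 3950.1, which is 1.97 ± 0.24 on the log2 scale or 3.9-fold above starved 0 h (adjusted p = 4.34e-07), and at 24 h the difference was 1.21, or 0.80 without replicate 1 of that time (adjusted p = 0.0394). The other 2 Azin1 probe sets rose by 1.91 and 2.14 at 8 h. The Azin1 course was the closest to that of Odc1 among the 9 genes, with a Pearson correlation of 0.958 over the 13 group means.

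The antizyme gene Oaz1 differed from starved 0 h by between -0.08 and 0.17 at the 10 IL-2 times, with an SE of about 0.11 at each time with 3 arrays. Its signals at 8 h of IL-2, 16953.4, 17510.1 and 16591.5, lay at or just above the upper end of the starved arrays (13515.4 to 16725.4). Oaz2, the second antizyme gene, had 902.7, 941.8 and 966.7 at 8 h of IL-2, below all starved arrays (1030.2 to 1424.2), with a difference of -0.33 ± 0.18 (adjusted p = 0.219). Array ranges of IL-2 8 h and starved 0 h did not overlap for 23.8% of all tested probe sets, so the separation of Oaz2 is common among them. Oaz1 and Oaz2 are translated by a frameshift that polyamines promote, a step that RNA arrays do not measure.

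Sat1, the gene of the acetyltransferase that starts polyamine breakdown, was the one member called lower than starved 0 h at any IL-2 time. It had 13202.7, 14143.2 and 16677.2 at 0.5 h, within or above the 10463.4 to 13957 of the starved arrays, and 5819.4, 7426.1, 5654.8 and 9898.9 at 4 h, below them all. The share of all probe sets that separate likewise at 4 h was not counted. The 8 h signals were 3831.4, 2968.8 and 4510.5. The 12 h signals were 1280.1, 2646.1 and 5824.3, and those of 16 h were 497.1, 6023.6 and 6833.5. Replicates were thus further apart on a ratio scale at 12 and 16 h than at 8 h. For these times limma's differences all had an SE of 0.58. They were -1.69 at 8 h (adjusted p = 0.0339), -2.06 at 10 h (0.00888), -2.15 at 12 h (0.00641) and -2.13 at 16 h (0.00886). Leaving out replicate 1 of its own time ended each call from 10 to 16 h, with differences of -1.60, -1.62 and -0.91. The call at 8 h was lost without any 1 of the 3 IL-2 arrays of that time or without starved replicate 2 or 5, at -1.53 to -1.83. In fits on the compared arrays alone, Sat1 was also called at 4 h (-0.78, adjusted p = 0.00934) and 6 h (-1.26, adjusted p = 6.94e-04), and with array weights at 6 h (-1.23, adjusted p = 0.0241). At 24 h Sat1 had 1125.4, 11903.8 and 11658.7, so 2 of 3 arrays were back within the starved range; the difference was -1.16 (adjusted p = 0.227), and -0.03 without replicate 1. At the 4 called times, the mean of the IL-2 arrays of a scan day was compared with that of its starved arrays. On every day that held both, the IL-2 mean was lower, with differences from -2.68 to -0.98. The IL-2 mean behind -2.68 pools replicates 1 and 3 of 16 h, the arrays with 497.1 and 6833.5.

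Smox, the oxidase gene, had low signals. Its lead signal ran from 2.8 to 195.6 over the 43 arrays, around the array medians, and its second probe set was above the median on 0 of 43 arrays and was not tested. No Smox difference from starved 0 h passed the test, and at 8 h the 95% interval of the difference ran from -0.86 to 1.11.

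**Figure D3:**
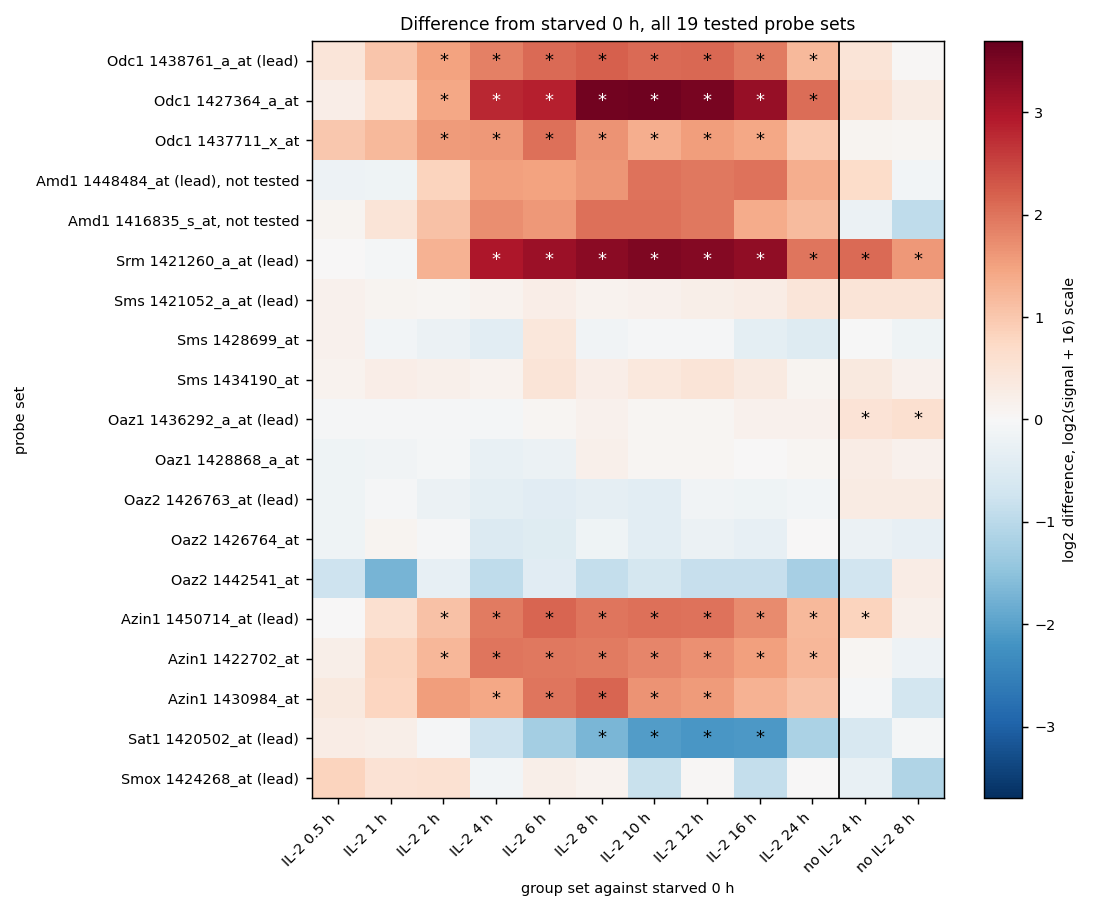
Log2 difference from starved 0 h for the 19 tested probe sets (down the page) at 10 IL-2 times and in the 2 no IL-2 groups (across); stars mark adjusted p under 0.05 in limma, and the 2 Amd1 probe sets were given no test. The Odc1, Srm and Azin1 rows are red and first hold stars at 2 or 4 h. The Sat1 row is blue from 4 to 24 h and holds stars from 8 to 16 h. The Sms, Oaz1, Oaz2 and Smox rows hold no star at any IL-2 time.

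In the last interval, from 8 to 24 h of IL-2, 0 of the 8 genes changed by limma at an adjusted p under 0.05, with 3 at an unadjusted p under 0.05, where 2.42% of all tested probe sets were called. The differences were -1.0 for Odc1 (adjusted p = 0.0679), -1.35 for Srm (0.0939) and -0.76 for Azin1 (0.147). All 3 were called without IL-2 24 h replicate 1: -1.43 for Odc1 (adjusted p = 0.00239), -2.12 for Srm (9.19e-04) and -1.17 for Azin1 (0.00485). With all arrays, the second Odc1 probe set fell by 1.51 on the log2 scale (adjusted p = 0.0265). The 24 h signals of replicates 2 and 3 (11280.8 and 8989.3 for Odc1, 1280.3 and 948.8 for Srm) lay below every array from 4 to 16 h of IL-2 for these genes.

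The second comparison sets IL-2 against equal further time without it, which separates the return of IL-2 from the passing of time in culture, although scan year goes with it. At 8 h, Odc1, Srm and Azin1 were higher and Oaz1 and Oaz2 lower with IL-2: 5 of 8 genes were called, against 19.8% of all tested probe sets. Odc1 had 28453.1, 26900 and 26276.9 in IL-2 8 h cells, against 5876.4, 5827.4 and 6139.7 in no IL-2 8 h cells. The groups were far apart, by 2.19 ± 0.30 on the log2 scale (adjusted p = 2.2e-06), and the no IL-2 arrays lay within the starved range. Srm had 5020.1, 5149.9 and 4359.2 in IL-2 8 h cells, against 1516.3, 1279.3 and 1541 in no IL-2 8 h cells, a difference of 1.73 ± 0.44 (adjusted p = 0.00336). Azin1 had 3708.2, 3317.4 and 3950.1 in IL-2 8 h cells, against 880.3, 1248.1 and 1050.7 in no IL-2 8 h cells, a difference of 1.78 ± 0.27 (adjusted p = 9.65e-06). For all 3 genes every IL-2 array lay above every no IL-2 array, a separation shared by 43.2% of all probe sets at 8 h in one direction or the other. Amd1, described only, had 3632.1, 3336.1 and 3520 with IL-2, against 959.2, 1089.6 and 1096.6 without. That is a difference of 1.72, against 2.98 for the second Amd1 probe set. From starved 0 h to no IL-2 8 h the lead probe set differed by -0.09 and the second by -0.95, with separate array ranges for the second.

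Sat1 at 8 h had 3831.4, 2968.8 and 4510.5 in IL-2 cells, against 11170.2, 11588 and 12050.5 in no IL-2 cells. The ranges did not overlap and the difference was -1.64 ± 0.65, but it did not pass the test (adjusted p = 0.0703), with an SE drawn from the spread within all 13 groups. In a fit on the arrays of these groups alone it was called, at the same -1.64. Smox differed by 1.23 (adjusted p = 0.113), and was called at 1.80 without no IL-2 8 h replicate 1; its 3 no IL-2 signals were 77, 26 and 2.8.

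At 4 h, limma called 4 of 8 genes between IL-2 and no IL-2 cells, against 14.5% of all tested probe sets. Odc1 was 1.39 ± 0.26 higher with IL-2 (adjusted p = 3.59e-04), and Azin1 1.10 ± 0.24 higher (0.00134). Srm had 4739.1, 3596.3, 3401.6 and 3547.7 in IL-2 4 h cells, against 1381.5, 7230.9, 1112.6 and 1491 in no IL-2 4 h cells, and its difference of 0.90 ± 0.38 was not called (adjusted p = 0.106). Without no IL-2 4 h replicate 2, the array with 7230.9, the Srm difference was 1.51 ± 0.32 and was called (adjusted p = 6.1e-04). Leaving out that array also gave 1.82 for Odc1 and 1.45 for Azin1. No difference between the IL-2 effects at 8 h and at 4 h was called in any of the 8 genes by limma, and 0 had an unadjusted p under 0.05, where 0.0497% of all tested probe sets were called. For Odc1, Srm and Azin1 it was 0.80, 0.83 and 0.68 with all arrays. Without no IL-2 4 h replicate 2 it was 0.38, 0.22 and 0.33, again not called.

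**Figure D4:**
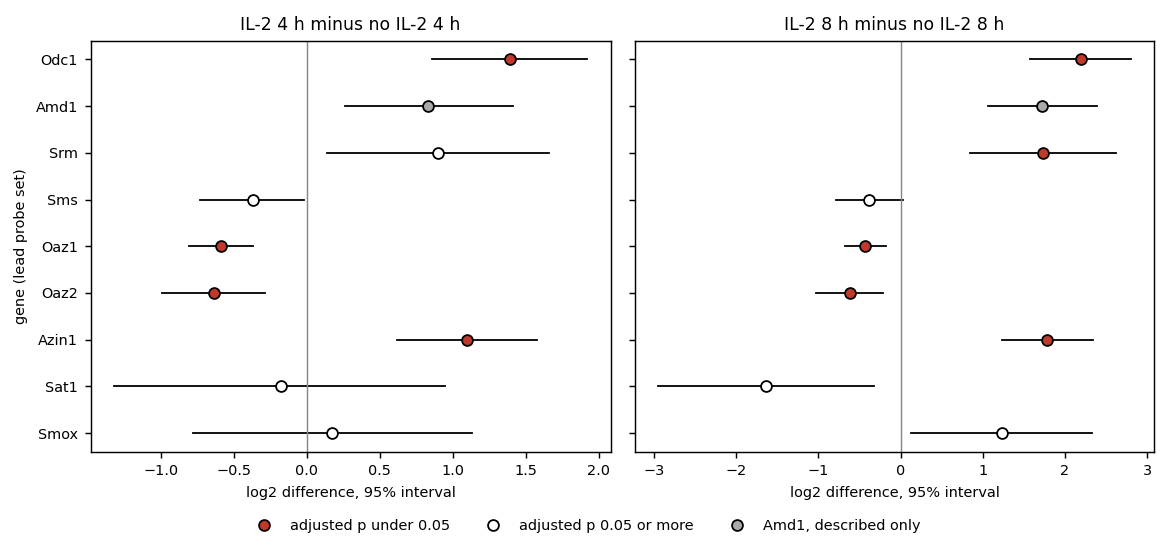
Log2 difference between IL-2 and no IL-2 cells at 4 h (left, 4 arrays each) and 8 h (right, 3 arrays each) for the lead probe set of each gene; points are limma estimates, lines 95% intervals, and the x axes differ. Odc1 and Azin1 lie to the right of 0 at both times, Oaz1 and Oaz2 to the left, and the Sat1 and Smox intervals are the widest.

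The antizyme genes went the other way from Odc1. Oaz1 had 13901, 15376.5, 14275.5 and 14043.3 in IL-2 4 h cells, against 19728.8, 21168.7, 22032.2 and 24039 in no IL-2 4 h cells, a difference of -0.59 ± 0.11 or 1.51-fold lower (adjusted p = 2.23e-04). At 8 h it had 16953.4, 17510.1 and 16591.5 with IL-2, against 23352.3, 21981.8 and 23391.4 without, a difference of -0.43 ± 0.12 (adjusted p = 0.0109). Oaz2 was lower by a similar amount, -0.64 ± 0.18 at 4 h (adjusted p = 0.0105) and -0.62 ± 0.20 at 8 h (adjusted p = 0.0238), and the 8 h call was lost on leaving out any 1 of its 6 arrays, at -0.60 to -0.65. With scan day as a random block neither Oaz2 difference was called (-0.59, adjusted p = 0.0904, at 4 h and -0.67, adjusted p = 0.0623, at 8 h). Since Oaz1 did not pass the test against starved 0 h at any IL-2 time, its difference lay on the side of the no IL-2 cells: all 7 no IL-2 arrays (19728.8 to 24039) exceeded all 36 others (13515.4 to 18714.3). That separation follows scan year exactly, and it was seen in 0.652% of all tested probe sets. The second Oaz1 probe set, which also matches a pseudogene, differed by -0.55 at 4 h (adjusted p = 0.142) and 0.03 at 8 h (0.962), and the second Oaz2 probe set by -0.29 (0.55) and 0.16 (0.795), so the calls rest on the lead probe sets. The Oaz1 and Oaz2 calls were lost with each array centred on its median, at -0.61 and -0.47 for Oaz1 and -0.66 at both times for Oaz2, and the 8 h difference of Oaz1 was -0.21 and not called after quantile normalisation.

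The third comparison follows the cells that stayed without IL-2. Srm, Oaz1 and Azin1 rose in no IL-2 4 h cells against starved 0 h cells, 3 of 8 genes where 8.01% of all tested probe sets were called and 2.59% called higher. Srm and Oaz1 rose in no IL-2 8 h cells, 2 of 8 genes where 5.46% were called and 2.26% called higher. Of all calls, 32.3% were higher at 4 h and 41.4% at 8 h as deposited, against 83.1% and 75.8% with each array centred on its median. Srm was 2.09 higher at 4 h (adjusted p = 2.57e-04), or 1.48 without replicate 2 (adjusted p = 0.0034), and 1.60 higher at 8 h (adjusted p = 0.00966). All 7 no IL-2 arrays had an Srm signal (1112.6 to 7230.9) above the 378.5 to 601.3 of the starved arrays. The starved arrays were scanned in the other year, and the share of all probe sets that separate in this way was not counted. The Srm call at 8 h was lost without replicate 1 or 3 of the no IL-2 8 h group, at 1.57 and 1.55. It was also lost with scan day as a random block, at 1.33 (adjusted p = 0.221). Azin1 was 0.82 higher at 4 h (adjusted p = 0.0196), but 0.47 and not called without replicate 2 (adjusted p = 0.184) and 0.76 and not called with scan day as a random block (adjusted p = 0.192). Its other 2 probe sets differed by 0.06 and -0.03 there and were not called. Oaz1 was 0.51 higher at 4 h (adjusted p = 0.00152) and 0.59 at 8 h (adjusted p = 9.8e-04), or 0.22 and 0.15 and not called after quantile normalisation. The second Oaz1 probe set differed by 0.27 (adjusted p = 0.517) and 0.17 (0.791), and the mean of both by 0.39 (0.105) and 0.38 (0.207). Odc1 was not called, at 0.47 with all 4 h arrays and 0.04 without replicate 2. Sms, at 0.49 (adjusted p = 0.0598), was called at 0.56 without starved 0 h replicate 5. These comparisons share the starved arrays with those of the time course.

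The authors' deposited table of changed probe sets, 3838 probe sets in 9 clusters, held the lead probe sets of Odc1, Amd1, Srm and Azin1 in its cluster 5 and that of Sat1 in its cluster 4. It did not list Sms, Oaz1, Oaz2 or Smox. The false-discovery p in the authors' deposited table was 2.21e-04 for Odc1, 2.49e-06 for Srm, 7.4e-05 for Azin1 and 0.00121 for Sat1.

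Among 14535 genes, those whose 13 group means followed Odc1 most closely were Cdk6, a cyclin-dependent kinase of the G1 phase, with a Pearson correlation of 0.989, Mllt11 at 0.98, Acpp at 0.976, and Il2ra, the IL-2 receptor alpha chain, and Agpat5, both at 0.974. The genes most like Srm were Mybbp1a, which encodes a nucleolar MYB-binding protein, at 0.992, and Ebna1bp2, a ribosome biogenesis factor, and Smyd5, both at 0.988. Ccpg1 (0.984), Dop1b (0.982) and Smap1 (0.98) were most like Sat1. Odc1 correlated with Amd1 at 0.885, with Srm at 0.796, with Oaz2 at -0.801 and with Sat1 at -0.789. All points of these correlations share the same 43 arrays and are descriptions only. In the order of group means, neighbouring groups overlapped in their array values at all 12 steps for Odc1, Sms and Smox. They were separate at 1 of 12 steps for Srm (between IL-2 0.5 h and the next group up), Oaz1, Azin1 and Sat1, and at 2 of 12 for Amd1 and Oaz2.

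A list of 25 other genes of polyamine, ornithine, methionine-salvage and hypusine metabolism was also measured, 19 of them by a tested probe set. At 8 h of IL-2 against starved 0 h, 7 of the 19 were called, 4 higher and 3 lower, against 19.1% of all tested probe sets; the median of the list was 0.32 and that of all tested probe sets -0.14. Mtap, which recycles the methylthioadenosine that Srm and Sms release, had a signal of 4217 ± 235 in IL-2 8 h cells and 796 ± 154 in starved cells (SD, n = 3 and 5), a rise of 2.40 ± 0.29 on the log2 scale (adjusted p = 3.01e-07). Atp13a3, which encodes a polyamine-transporting ATPase, rose by 1.11 (adjusted p = 0.0028), and Oat, ornithine aminotransferase, by 1.10 (adjusted p = 7.96e-04). Adi1, a later enzyme of methionine salvage, differed by -1.21 ± 0.25 (adjusted p = 5.55e-04).

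**Figure D5:**
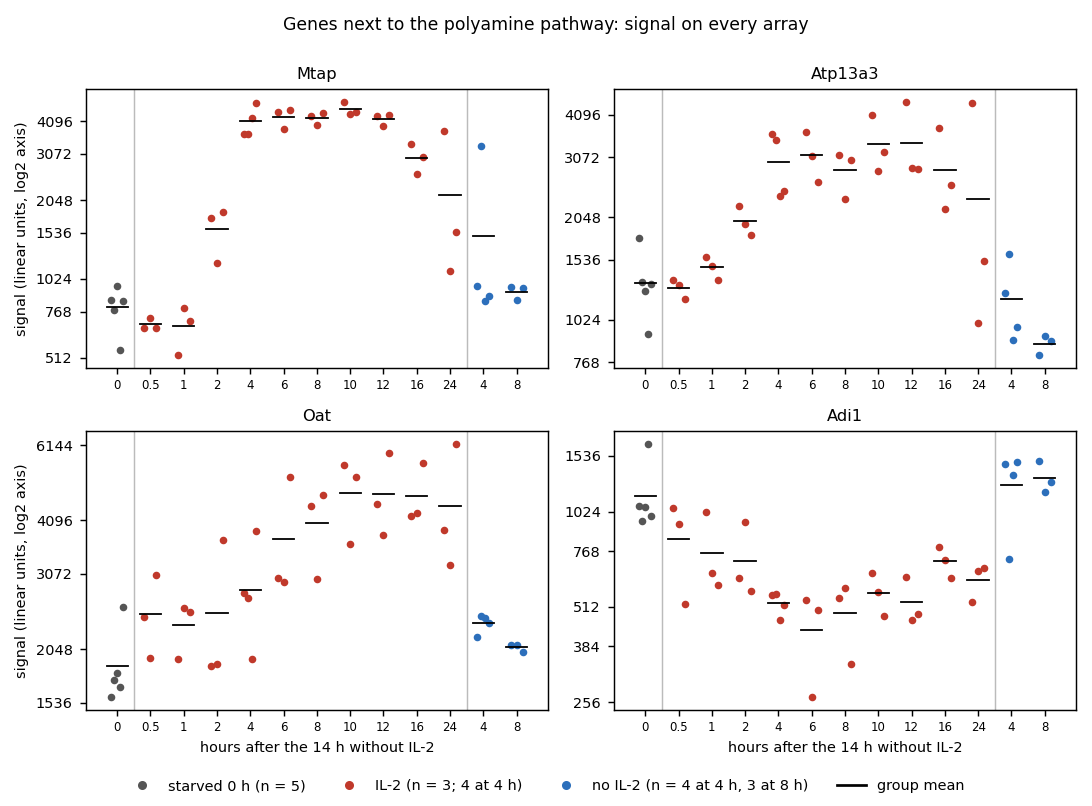
Signal of 4 genes next to the polyamine pathway on all 43 arrays (log2 axes that differ between panels; points are arrays, black bars group means; x axis in hours after the 14 h without IL-2). Mtap rises between 1 and 4 h of IL-2, Atp13a3 and Oat are higher at 8 h of IL-2 than in the starved cells, and Adi1 is lower at 4 to 12 h of IL-2 than in the starved cells.

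Between IL-2 8 h and no IL-2 8 h cells, 7 of the 19 listed genes were called, 3 higher and 4 lower, against 19.8% of all tested probe sets. Mtap was 2.19 higher (adjusted p = 6.04e-06) and Atp13a3 1.67 higher (adjusted p = 1.04e-04) with IL-2, while Adi1 differed by -1.42 (adjusted p = 3.03e-04) and Mri1, another salvage enzyme, by -1.18 (adjusted p = 0.0153). The Mri1 call was lost without IL-2 8 h replicate 1 or 3 or no IL-2 8 h replicate 3, at -1.02, -1.06 and -1.13. It was also lost with its probe sets averaged (-0.64, adjusted p = 0.253) and with scan day as a random block (-1.01, adjusted p = 0.0563). In no IL-2 8 h cells against starved cells, 3 of the 19 were called, all higher, against 5.46% of all tested probe sets called and 2.26% called higher. They were Slc3a2, the heavy chain of amino acid transporters (0.86), Aldh18a1, of proline and ornithine synthesis (0.80), and Eif5a, the translation factor that carries hypusine made from spermidine (0.72). The Slc3a2 and Aldh18a1 calls were lost without no IL-2 8 h replicate 1, at 0.81 and 0.78. The Eif5a call was lost after quantile normalisation (0.13), with its probe sets averaged (0.36), with median centring (0.93) and with scan day as a random block (0.68), which also ended the Slc3a2 and Aldh18a1 calls (0.79 and 0.81).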

How the data were processed

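RNA of 43 CTLL-2 samples was hybridised to 43 arrays, 1 per sample. The signal intensities deposited by the authors are linear values per probe set, made with GCOS 1.3 per the submitters' processing notes; a trimmed mean (2% off each end) of 500.003 to 500.004 on every array shows that the authors scaled the arrays to a common target. The authors' deposited table gives p-values adjusted for false discovery and cluster scores (a cluster number) for 3838 probe sets in 9 clusters. Scan days, 8 in all, came from the deposited experiment files.

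From these, log2(signal + 16) was computed, 64 control probe sets were left out, and the 32184 probe sets above their array's median on at least 3 arrays were tested with limma 3.58.1 (R 4.3.3): 13 group means, empirical Bayes with a variance trend, two-sided tests, and Benjamini-Hochberg adjustment within each comparison at 0.05. Differences of low signals are understated by the added 16. The number of arrays limits precision: 3 to 5 arrays a group and 30 residual degrees of freedom. The median residual SD was 0.552 on the log2 scale. The fit was tested on simulated data.

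Samples were grouped by the labels. The 9 genes and all lists were chosen with earlier results of these data known. All 9 genes are named; of the 25 listed pathway genes, those with the largest called differences are named at 8 h. Of the 45101 probe sets, 34958 carry 1 symbol in the platform annotation, 932 several and 9211 none, and Amd1 was named from the authors' table. Replicate numbers did not pair the arrays: deviations of same-numbered arrays correlated with a median of 0.024 over 237 pairs, and those of other arrays with -0.013 over 614. Arrays of the same scan day did deviate together somewhat more (median 0.082 over 199 pairs, against -0.011 over 652), with a consensus correlation of 0.349, and scan day is a random block in an alternative fit only. At most 0.291% of signals were identical between replicate arrays. Alternatives were other added constants, filters, normalisations, probe set rules and fits, and leaving out each array.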

Additional observations from a re-analysis of the deposited data

Results flagged for a closer look

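In groups of 4 or 5 arrays, an array counted as distant when its gap to the nearest other array, divided by the whole range of the group, passed Dixon's 95% value; 27 gene-by-group sets were examined, and chance alone would mark about 1 in 20 of such sets. In the no IL-2 4 h group, replicate 2 was distant for 4 genes on the log2(signal + 16) scale: highest for Amd1 at 11.99 (others 10.40 to 10.49), for Srm at 12.82 (others 10.14 to 10.56) and for Azin1 at 11.74 (others 10.23 to 10.40), and lowest for Sat1 at 11.87 (others 13.25 to 13.41). For each of these genes that array lay on the side of the IL-2 4 h arrays; its part in the no IL-2 group means is given by the values without it, and whether its label is right was not tested. In the IL-2 4 h group, replicate 1 was highest for Srm at 12.22 (others 11.74 to 11.82).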

How the results depend on the processing

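Of 3437 alternative values for single genes and comparisons, 3305 were counted as unchanged. These stayed on their side of the threshold or, for Amd1, moved by less than the replicate spread. Another 76 lost a call, 50 gained one, 6 of the untested Amd1 values moved by more than the replicate spread, and 0 called values turned sign. An uncalled value could turn sign and count as unchanged, such as Srm at 0.5 h of IL-2 (-0.26 to 0.16 with single arrays left out). Calls among the 8 genes in the report were 4 for the F test, 27 by gene and time, 4 (at 4 h) and 5 (at 8 h) between IL-2 and no IL-2 cells, 3 and 2 for no IL-2 4 and 8 h against starved 0 h, 2 for IL-2 8 h against 2 h, and 0 for IL-2 24 h against 8 h. With array weights, IL-2 24 h against 8 h gave 4, IL-2 8 h against 2 h 4, no IL-2 4 h 5 and no IL-2 8 h 4. With only the arrays compared in the fit, IL-2 8 h against 2 h gave 4 and no IL-2 4 h 1. When all probe sets of a gene were averaged, IL-2 8 h against 2 h gave 1, IL-2 8 h against no IL-2 8 h 3, and no IL-2 4 h and 8 h 1 each. With median centring, IL-2 and no IL-2 cells gave 2 at 4 h and 3 at 8 h, IL-2 8 h against 2 h 1 and no IL-2 8 h 1. IL-2 8 h against 2 h also gave 1 with no filter, no variance trend, an added constant of 1 or 64, quantile normalisation, or without the 7 arrays of scan day 2 (chosen after seeing the data). No IL-2 8 h gave 1 with quantile normalisation or scan day as a random block. That block also gave 3 calls (from 4) and 4 (from 5) between IL-2 and no IL-2 cells at 4 and 8 h, and 2 for no IL-2 4 h. IL-2 24 h against 8 h gave 1 with a filter at the 75th percentile and 3 without scan day 2, where the 24 h calls of Odc1, Srm and Azin1 against starved 0 h were lost. With the replicate number as a block the counts were 4, 27, 4, 6, 4, 2, 2 and 0 in the order above. Leaving out single arrays gave 4 to 4, 26 to 28, 4 to 5, 4 to 5, 2 to 4, 1 to 2, 1 to 1 and 0 to 3 in that order, and 0 to 0 for the difference of the IL-2 effects. The cause of these changes was not tested. Median centring also ended the Sat1 calls at 8 and 10 h (-1.52 and -1.71). It moved the share of higher calls among all probe sets at 8 h of IL-2 to 53.9%, against 37.1% as deposited. As deposited, the median of all tested probe sets was -0.14 there. Smox signals near the array medians limit what can be said of that gene.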
